A study of Macaca fascicularis with 7 samples.

Results

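Genes that carry fatty acids into mitochondria and oxidise them there, together with genes of the lipid droplet, were followed through oocyte maturation in the cynomolgus monkey (Macaca fascicularis). The set was chosen by name from knowledge of these pathways, with earlier results of these data known. Of its 34 genes, 31 had a row among the 28161 usable gene rows of the deposited count table. ACADVL, ACSL5 and PLIN2 were not analysed here. A further 3 genes, CPT1A, PLIN4 and LIPE, had too few counts to be tested, which left 28 tested members among 16374 tested genes.

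The libraries came from 3 groups of wild-type oocytes. Germinal vesicle (GV) oocytes are immature, are halted in meiotic prophase and gave 2 libraries labelled as controls. Metaphase II (MII) oocytes are mature and ready for fertilisation. Those matured inside the animal (in vivo, IVO MII) gave 2 libraries, also labelled as controls, and those matured in culture (in vitro, IVM MII) gave 3 libraries labelled as treated. The study compared gene expression between these 3 kinds of oocyte. The sources used here do not give the animals' age, the culture conditions, the number of oocytes in a library or the animals behind each library. Every p-value therefore measures the spread between libraries only, and that spread may be technical.

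Long-chain fatty acids are first joined to coenzyme A by acyl-CoA synthetases and then carried across the mitochondrial membranes as carnitine esters. In the matrix each turn of the beta-oxidation spiral uses a dehydrogenase, a hydratase, a second dehydrogenase and a thiolase, and the electrons pass through the electron transfer flavoprotein to the respiratory chain. Fatty acids that are not burned are stored as triglycerides in lipid droplets, whose perilipin coat controls the access of lipases. Mammalian oocytes hold lipid droplets and use beta-oxidation as a source of energy during maturation, while most of their transcription is silent and stored mRNA is translated or degraded.

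Library totals lay between 22901970 and 29245733 counts, and levels are given as CPM, which are counts scaled to a common library size by TMM (trimmed mean of M values). GV libraries had TMM factors of 1.423 and 1.382, and MII libraries 0.7662 to 0.9848. A floor of 3 counts was worth 0.0907 to 0.161 CPM in a library. The labels put GV libraries in another file folder than all MII libraries, so for comparisons with GV the folder and the group cannot be told apart. Oocyte markers (14 of 15 with a row) summed to 16015 to 17743 CPM in GV, 21001 to 26727 in IVO MII and 22342 to 25248 in IVM MII. The largest part of the MII sums was DPPA3, whose mean was 9440 CPM for IVM MII, 13591 for IVO MII and 2997 for GV. Other oocyte markers differed from GV in both directions, so these sums do not measure oocyte content. Reverse transcription started from poly(A) tails, so a change in tail length can change a count. The number of oocytes in a library is not given, so fewer cells and less RNA per cell cannot be told apart.

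Most of the members' reads came from a few genes of the mitochondrial matrix. Per kilobase of gene length, ETFA, which encodes the alpha subunit of the electron transfer flavoprotein, had the highest level in GV, 297 ± 18.6 CPM per kilobase (SD, n = 2). HADHA, the alpha subunit of the trifunctional protein that handles long-chain intermediates, followed with 259 ± 7.24. HADH, the short-chain hydroxyacyl-CoA dehydrogenase, had 90.6 ± 12.1, and ECI2, an isomerase for unsaturated fatty acids, had 63.2 ± 5.37. The next 4 levels could not be separated beyond their spread: ETFB at 26.9 ± 6.40, ABHD5 at 24.5 ± 3.23, ETFDH at 24.1 ± 2.21 and ACSL3 at 23.0 ± 2.03. In IVO MII the order was led by ETFA (679 ± 33.1) and ACSL3 (48.9 ± 1.71), and in IVM MII (n = 3) by the same genes, with ETFA at 806 ± 181 and ACSL3 at 56.4 ± 11.6. HADHA was at 14.8 ± 7.31 in IVO MII and 6.57 ± 4.30 in IVM MII, all in CPM per kilobase.

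**Figure D1:**
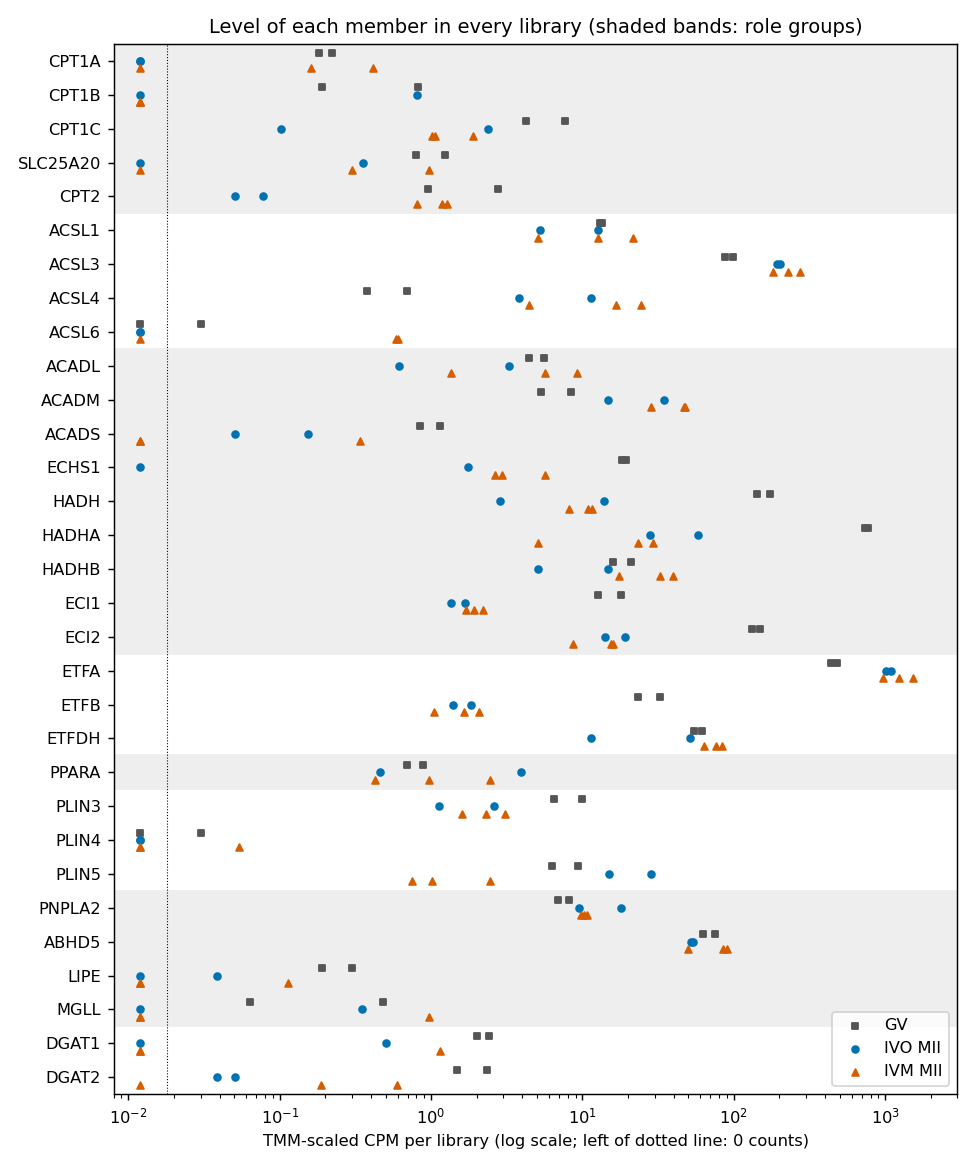
Each point is the TMM-scaled CPM of a member in 1 library (log axis, 0 counts drawn left of the dotted line), with GV as squares, IVO MII as circles and IVM MII as triangles, and shaded bands marking genes of like role. ETFA lies at 439 CPM or more in every library, while HADHA falls from 738 and 768 CPM in GV to 5.10 to 58.1 in the MII libraries.

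Against GV, members moved both ways in the mature oocytes. A gene was called at an adjusted p under 0.05 (edgeR quasi-likelihood test, Benjamini-Hochberg over all 16374 genes, no minimum fold). In IVO MII 4 of 28 members rose and 7 fell, against 14.6% and 13.5% of all tested genes. In IVM MII 4 rose and 6 fell, against 18.5% and 17.8% of all tested genes. The median log2 fold change of the members was -1.70 in IVO MII (quartiles -3.23 and 0), against -0.16 over all genes (-1.85 and 1.15). In IVM MII it was -1.02 (-2.87 and 0.51), against -0.10 over all genes (-1.86 and 1.26). Both comparisons share the GV libraries, so their values are set side by side. Where libraries of different groups are said not to overlap, this describes the values only. With so few libraries such separation can also arise by sampling, and its share over all genes was not counted. ACSL3, ACSL4, ACADM and ETFA were called higher in both, and HADH, HADHA, ECI1, ECI2 and ETFB lower in both. CPT2 and ECHS1 were called in IVO MII, PLIN5 in IVM MII, and 16 tested members in neither.

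**Figure D2:**
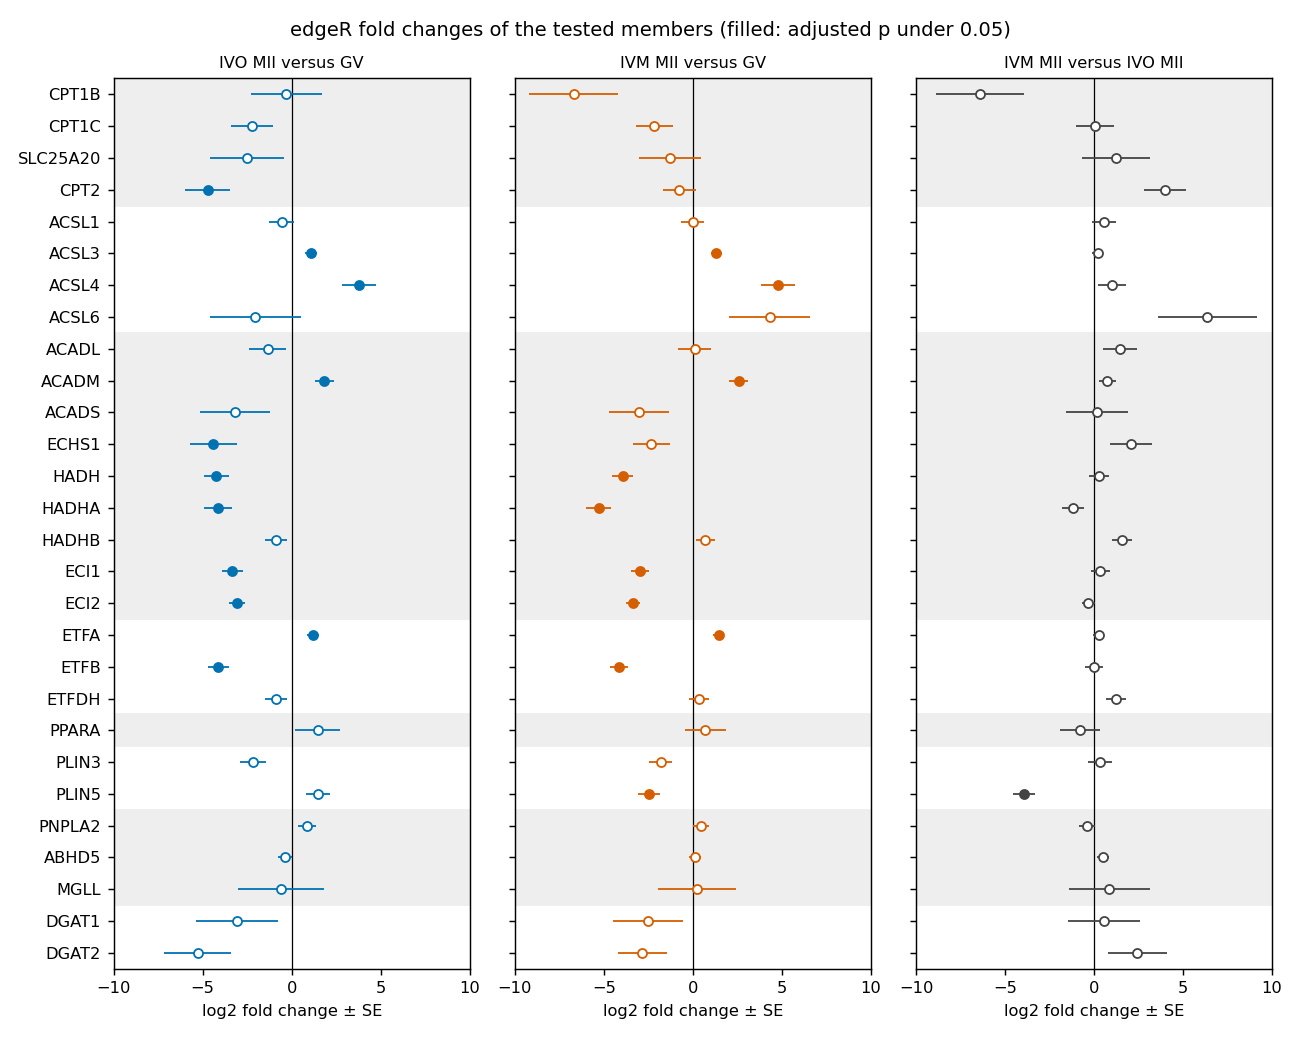
Points give the edgeR log2 fold change of each of the 28 tested members with its standard error (SE) as a bar, in 3 panels for IVO MII versus GV, IVM MII versus GV and IVM MII versus IVO MII, and filled points were called. The called members lie on both sides of 0 in the panels against GV, and PLIN5 at -3.93 is the 1 filled point between the kinds of MII oocyte. Bars of genes with 0 counts in a group depend on the fit and give no bound.

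Transcripts listed under the carnitine shuttle were at low levels, at most 7.65 CPM in any library for CPT1C and 2.75 CPM for the others. CPT1A and CPT1B encode forms of the outer-membrane carnitine palmitoyltransferase, and CPT1C is a related gene listed with them. SLC25A20 encodes the carrier that exchanges acylcarnitine for carnitine. CPT2 (chr1:174220447-174238866 of the deposited table) encodes the inner-membrane transferase that restores the acyl-CoA. CPT2 had 91 and 30 counts in the GV libraries, 1 and 2 in IVO MII and 15, 28 and 34 in IVM MII. The IVO MII libraries lay below all others, and the GV and IVM MII ranges overlapped in CPM (0.949 and 2.75 in GV, 0.805 to 1.28 in IVM MII). GV exceeded IVO MII by a ratio of 28.4 (95% exact counting interval 9.49 to 140), with an edgeR adjusted p of 0.0240. The CPT2 call was lost with any GV or IVO MII library left out: adjusted p was 0.257 and 0.0801 without GV replicates 1 and 2, and 0.0806 and 0.0587 without IVO MII replicates 1 and 2.

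CPT1C, a related gene known from brain, had the highest level of the listed shuttle members. It had 7.65 and 4.24 CPM in GV, 0.102 and 2.39 in IVO MII, and 1.02, 1.06 and 1.88 in IVM MII. Its GV libraries lay above all MII libraries. The log2 fold changes were -2.24 (SE 1.19, edgeR adjusted p = 0.188) in IVO MII and -2.17 (SE 1.04, adjusted p = 0.131) in IVM MII. The value in IVO MII was -1.32 without IVO MII replicate 1, and -5.81 with a call (0.0167) without replicate 2. In IVM MII CPT1C was called with only the groups compared (0.0260) and without IVO MII replicate 1 or 2 (0.0281 and 0.0284). CPT1B, the muscle form, had 27 and 6 counts in GV, 0 and 21 in IVO MII and 0 in all 3 IVM MII libraries. GV was at least 3.77-fold higher than IVM MII for CPT1B when 3 counts were put in each library at 0 (edgeR adjusted p = 0.0754, and 0.0437 and 0.0495 without IVO MII replicates 1 and 2). SLC25A20 had at most 1.24 CPM in any library and 0 counts in 1 library of each MII group (-2.52, SE 2.08, adjusted p = 0.392 in IVO MII and -1.27, SE 1.74, adjusted p = 0.594 in IVM MII). CPT1A, the liver form, had 6 and 7 counts in GV, 0 in IVO MII and 3, 0 and 11 in IVM MII.

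Of the acyl-CoA synthetases, which activate long-chain fatty acids, 2 of 4 tested members rose in both kinds of MII oocyte and none fell. Over all tested genes 14.6% rose in IVO MII and 18.5% in IVM MII, and so few members cannot show a trait of the role. ACSL3 (chr12:112632697-112711420), whose protein sits on endoplasmic reticulum and nascent lipid droplets, had 98.7 and 87.0 CPM in GV, 203 and 193 in IVO MII, and 229, 181 and 274 in IVM MII. All 5 MII libraries lay above both GV libraries. ACSL3 rose by 1.09 on the log2 scale in IVO MII (SE 0.33, edgeR adjusted p = 0.0377) and by 1.30 in IVM MII (SE 0.31, adjusted p = 0.0126). ACSL4 (chrX:106761664-106844358), which prefers arachidonic acid, had 0.696 and 0.379 CPM in GV, 11.3 and 3.82 in IVO MII, and 24.2, 16.7 and 4.44 in IVM MII. The MII groups overlapped each other and not GV. ACSL4 rose by 3.79 in IVO MII (SE 0.95, adjusted p = 0.0192) and by 4.80 in IVM MII (SE 0.96, adjusted p = 0.00614). Exons of ACSL4 share 254 of 5365 bases with a gene on the opposite strand, and the sources used here do not give the strand setting of the counting.

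The calls of these synthetases were lost when single libraries were left out. For ACSL3 in IVO MII the edgeR adjusted p was 0.191 and 0.254 without GV replicates 1 and 2, 0.0971 and 0.0655 without IVO MII replicates 1 and 2, and 0.0632 without IVM MII replicate 1, and for ACSL3 in IVM MII it was 0.104 and 0.137 without GV replicates 1 and 2. The call of ACSL3 in IVO MII was also lost with RLE scaling (0.0542) and with no filter on low counts (0.0598), and that of ACSL4 with limma voom (0.0800). For ACSL4 it was 0.0754, 0.121 and 0.0816 in IVO MII without GV replicates 1 and 2 and IVO MII replicate 1, and 0.0519 in IVM MII without GV replicate 2. ACSL1, a form abundant in liver, fat and muscle, was between 5.11 and 21.6 CPM in all libraries, with overlap between all groups and log2 fold changes of -0.56 (SE 0.71) and -0.01 (SE 0.64). ACSL6 had 1 count in the GV libraries, 0 in IVO MII and 11, 0 and 16 in IVM MII, a ratio of 25.4 (95% exact counting interval 4.18 to 1038) of IVM MII over GV with an edgeR adjusted p of 0.171.

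In the matrix spiral 1 of 9 tested members rose in both kinds of MII oocyte. Of the rest, 5 fell in IVO MII, and 4 fell in IVM MII. Over all tested genes 14.6% rose and 13.5% fell in IVO MII, and 18.5% and 17.8% in IVM MII. The acyl-CoA dehydrogenases carry out the first step, each for its own chain length. ACADM (chr1:151510397-151552970), the medium-chain enzyme, had 5.35 and 8.38 CPM in GV, 34.3 and 14.7 in IVO MII, and 47.4, 47.1 and 28.4 in IVM MII. Every MII library lay above both GV libraries. ACADM rose by 1.83 in IVO MII (SE 0.54, edgeR adjusted p = 0.0346) and by 2.58 in IVM MII (SE 0.53, adjusted p = 0.00670). Its call in IVO MII was lost, at adjusted p between 0.0519 and 0.235, without GV replicate 1 or 2, IVO MII replicate 1 or IVM MII replicate 1 or 2, and with the other group left out of the fit (0.0588). The value was 1.08 without IVO MII replicate 1. In IVM MII it was lost without GV replicate 1 (0.0782).

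The other dehydrogenases of that step were not called by edgeR with all libraries. ACADL, the long-chain enzyme, had 5.60 and 4.46 CPM in GV, 0.612 and 3.28 in IVO MII, and 9.23, 5.66 and 1.35 in IVM MII. Its IVM MII libraries overlapped both other groups, and the log2 fold change in IVO MII was -1.36 (SE 1.02, edgeR adjusted p = 0.344). ACADS, the short-chain enzyme, had 28 and 36 counts in GV, 1 and 4 in IVO MII and 0, 0 and 9 in IVM MII. Its fitted log2 fold changes were -3.19 (SE 1.98, adjusted p = 0.253) and -3.03 (SE 1.68, adjusted p = 0.186). ACADS in IVM MII was called with limma voom (0.0271) and without IVM MII replicate 3 (0.0240).

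Of the later steps, HADHA, HADH, ECI1 and ECI2 fell in both kinds of MII oocyte, ECHS1 fell in IVO MII, and HADHB was not called. HADHA (chr13:84640815-84697692) had 738 and 768 CPM in GV, 28.0 and 58.1 in IVO MII, and 5.10, 29.2 and 23.1 in IVM MII, so that the MII libraries lay far below GV. HADHA fell by 4.13 on the log2 scale in IVO MII (SE 0.78, edgeR adjusted p = 0.00632) and by 5.30 in IVM MII (SE 0.69, adjusted p = 0.00160). HADHB (chr13:84596398-84640832) encodes the beta subunit, the thiolase of the same trifunctional protein, and lies next to HADHA on the opposite strand with 18 shared exonic bases. It had 15.8 and 20.8 CPM in GV, 14.8 and 5.09 in IVO MII, and 39.4, 32.3 and 17.4 in IVM MII. For HADHB the GV and IVM MII ranges overlapped and IVO MII lay below both, and neither log2 fold change was called (-0.89, SE 0.60, adjusted p = 0.296 in IVO MII and 0.70, SE 0.55, adjusted p = 0.350 in IVM MII). Per kilobase, HADHA was at 259 ± 7.24 CPM and HADHB at 11.2 ± 2.14 in GV. In IVM MII the order was the other way in all 3 libraries, with means of 6.57 ± 4.30 for HADHA and 18.1 ± 6.82 for HADHB. In both IVO MII libraries HADHA was the higher, with means of 14.8 ± 7.31 and 6.05 ± 4.17.

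HADH (chr5:107377814-107424226), which oxidises short and medium hydroxyacyl-CoA, had 172 and 143 CPM in GV, 2.85 and 13.8 in IVO MII, and 8.10, 10.9 and 11.6 in IVM MII. It fell by 4.24 in IVO MII (SE 0.71, edgeR adjusted p = 0.00413) and by 3.95 in IVM MII (SE 0.59, adjusted p = 0.00220), with no overlap between GV and MII. The calls of HADH and HADHA against GV held under every alternative that was run. ECHS1, the hydratase for short chains, lies on an unplaced scaffold of the deposited table. It had 18.2 and 19.5 CPM in GV, 0 and 1.74 in IVO MII, and 5.63, 2.96 and 2.63 in IVM MII. All IVO MII libraries lay below the IVM MII libraries, and these below GV. ECHS1 fell by 4.41 in IVO MII (SE 1.33, adjusted p = 0.0379) and had -2.34 in IVM MII (SE 1.04, adjusted p = 0.109). The value in IVM MII was called with DESeq2, limma voom, only the groups compared, and without IVO MII replicate 1 or 2 (0.00766 to 0.0359). The call in IVO MII was lost at 0.0965 and 0.104 without GV replicates 1 and 2, at 0.0580 without IVM MII replicate 2 and at 0.0697 in a fit of only the groups compared. The value was -3.45 with the library at 0 counts left out.

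ECI1 and ECI2 encode the enoyl-CoA isomerases that move the double bonds of unsaturated fatty acids into a position the spiral can use. ECI2 (chr4:166902741-166923025) had 131 and 148 CPM in GV, 14.1 and 19.2 in IVO MII, and 16.0, 15.5 and 8.65 in IVM MII. ECI1 (chr20:2315022-2331440) had 12.7 and 18.0 CPM in GV, 1.68 and 1.35 in IVO MII, and 2.20, 1.69 and 1.92 in IVM MII. Both genes stood higher in each GV library than in any MII library. ECI2 fell by 3.06 in IVO MII (SE 0.45, edgeR adjusted p = 0.00286) and by 3.38 in IVM MII (SE 0.39, adjusted p = 0.00138), and both calls held under every alternative that was run. ECI1 fell with log2 fold changes of -3.34 (SE 0.60, adjusted p = 0.00544) and -2.98 (SE 0.51, adjusted p = 0.00326). Without GV replicate 2 the calls of ECI1 were lost at adjusted p = 0.0649 and 0.0524. Exons of ECI2 share 175 of 2205 bases with a gene on the opposite strand.

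The electron transfer genes went in opposite directions. ETFA and ETFB encode the alpha and beta subunits of the flavoprotein that takes electrons from the acyl-CoA dehydrogenases, and ETFDH the membrane enzyme that passes them to ubiquinone. ETFA (chr7:54482688-54584770) had 439 and 480 CPM in GV, 1084 and 1012 in IVO MII, and 1530, 1233 and 971 in IVM MII. All MII libraries lay above GV, and ETFA rose by 1.19 in IVO MII (SE 0.33, edgeR adjusted p = 0.0282) and by 1.44 in IVM MII (SE 0.31, adjusted p = 0.00855). ETFB (chr19:52101792-52120021) had 23.3 and 32.7 CPM in GV, 1.83 and 1.39 in IVO MII, and 1.66, 2.07 and 1.05 in IVM MII. All MII libraries of ETFB lay below GV, and the log2 fold changes were -4.12 (SE 0.60, adjusted p = 0.00288) and -4.13 (SE 0.51, adjusted p = 0.00154). Per kilobase, ETFA and ETFB were at 297 ± 18.6 and 26.9 ± 6.40 CPM in GV, at 679 ± 33.1 and 1.55 ± 0.304 in IVO MII, and at 806 ± 181 and 1.53 ± 0.493 in IVM MII.

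Both calls of ETFB held under every alternative that was run. Those of ETFA were lost without GV replicates 1 and 2, at edgeR adjusted p = 0.196 and 0.147 in IVO MII and 0.0963 and 0.0693 in IVM MII, and in IVO MII also without IVO MII replicate 1 (0.0746). ETFB shares 115 of 1040 exonic bases with CLDND2 on the same strand. ETFDH had 54.2 and 61.7 CPM in GV, 51.5 and 11.3 in IVO MII, and 76.1, 63.3 and 84.0 in IVM MII. Its IVM MII libraries were the highest, and neither log2 fold change against GV was called (-0.88, SE 0.61 in IVO MII and 0.36, SE 0.55 in IVM MII).

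**Figure D3:**
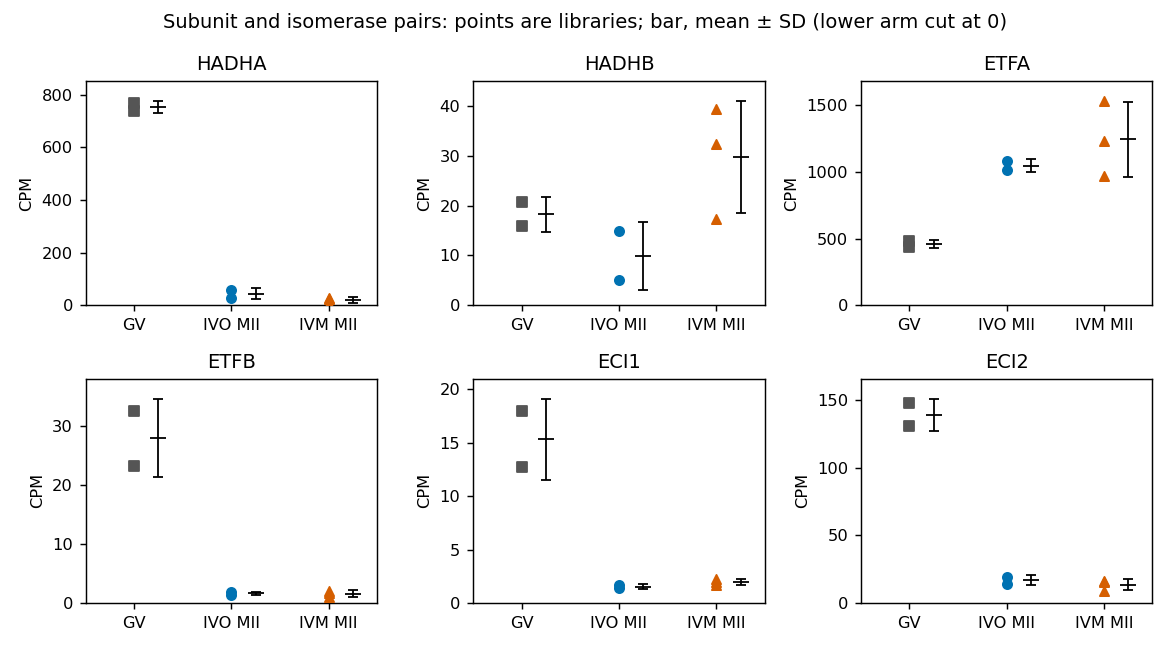
CPM per library (points) with the mean and SD of each group (bars) for 3 pairs of related genes: the trifunctional protein subunits HADHA and HADHB, the flavoprotein subunits ETFA and ETFB, and the isomerases ECI1 and ECI2. HADHA and ETFB drop from GV to both kinds of MII oocyte, ETFA rises, HADHB overlaps between GV and IVM MII, and both isomerases drop.

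PPARA, the nuclear receptor that drives transcription of many of these genes in liver, stayed low in oocytes. It had 0.696 and 0.885 CPM in GV, 0.459 and 3.93 in IVO MII, and 0.966, 0.423 and 2.44 in IVM MII. The groups overlapped, and the log2 fold change in IVO MII was 1.47 (SE 1.26, edgeR adjusted p = 0.408), which turned to -0.79 without IVO MII replicate 2.

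Among the droplet coat genes, PLIN5 was called and PLIN3 was not. PLIN5 (chr19:4594505-4608168) encodes the perilipin of oxidative tissues, which tethers droplets to mitochondria and restrains lipolysis. It had 9.35 and 6.29 CPM in GV, 14.9 and 28.2 in IVO MII, and 0.751, 1.01 and 2.44 in IVM MII. The IVO MII libraries were the highest, GV lay between, and the IVM MII libraries were the lowest, with no overlap. PLIN5 fell by 2.46 from GV to IVM MII (SE 0.62, edgeR adjusted p = 0.0155) and had 1.46 in IVO MII versus GV (SE 0.68, adjusted p = 0.137, and 0.0499 with limma voom). The IVM MII call against GV was lost without GV replicate 1 (0.103) and without IVM MII replicate 2 (0.0519).

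PLIN3, a coat protein of small and nascent droplets, had 6.53 and 9.93 CPM in GV, 2.60 and 1.12 in IVO MII, and 1.61, 2.32 and 3.08 in IVM MII. Its GV libraries lay above all MII libraries, but the log2 fold changes of -2.15 (SE 0.73, edgeR adjusted p = 0.0579) and -1.81 (SE 0.64, adjusted p = 0.0529) missed the threshold. Both were called with DESeq2 (0.00731 and 0.00824) and limma voom (0.0280 and 0.0263). The value in IVM MII was also called with RLE or upper quartile scaling, with only the groups compared and without IVO MII replicate 1 or 2 (0.0283 to 0.0444). PLIN4 had 1 count in GV replicate 1, 1 in IVM MII replicate 1 and 0 elsewhere.

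No lipase member was called against GV. PNPLA2 encodes adipose triglyceride lipase, ABHD5 its activator, LIPE hormone-sensitive lipase and MGLL monoglyceride lipase. ABHD5 had 75.5 and 62.6 CPM in GV, 54.1 and 51.9 in IVO MII, and 84.6, 90.0 and 49.6 in IVM MII, with log2 fold changes of -0.38 (SE 0.39) and 0.11 (SE 0.35). The IVO MII libraries of ABHD5 lay below GV, and the IVM MII libraries spanned both. PNPLA2 had 6.87 and 8.16 CPM in GV, 9.48 and 17.9 in IVO MII, and 10.7, 9.72 and 10.3 in IVM MII. Its MII libraries all lay above GV, by 0.87 (SE 0.50, edgeR adjusted p = 0.220) and 0.45 (SE 0.46, adjusted p = 0.472). LIPE had 10 and 6 counts in GV, 0 and 1 in IVO MII and 0, 0 and 3 in IVM MII, and MGLL had 16 and 2 counts in GV, 0 and 9 in IVO MII and 0, 23 and 0 in IVM MII.

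DGAT1 and DGAT2 encode the enzymes of the last step of triglyceride synthesis, and neither was called by edgeR with all libraries. DGAT2 had 77 and 47 counts in GV, 1 and 1 in IVO MII, and 0, 14 and 5 in IVM MII. GV was the highest group for DGAT2, by a ratio of 43.7 over IVO MII (95% exact counting interval 11.8 to 365, edgeR adjusted p = 0.0650) and by a log2 fold change of -2.84 in IVM MII (SE 1.39, adjusted p = 0.139). DGAT2 in IVO MII was called with DESeq2 (0.0105), limma voom (0.0296), only the groups compared (0.0185) and without IVM MII replicate 1 (0.0273), and in IVM MII with limma voom (0.0279). DGAT1 had 80 and 64 counts in GV, 0 and 13 in IVO MII, and 0, 27 and 0 in IVM MII. Its fitted log2 fold changes were -3.09 (SE 2.30, adjusted p = 0.341) and -2.52 (SE 1.94, adjusted p = 0.334). DGAT1 in IVM MII was called with limma voom (0.0302) and without IVM MII replicate 2 (0.0455), which held all its IVM MII counts.

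Between the in vitro and the in vivo matured oocytes, 0 members were called higher and 1 lower in IVM MII, against 0.892% and 0.58% of all tested genes. Over all genes this was 146 higher and 95 lower, and 127 and 125 when libraries were scaled by their upper quartile. Of the 28 members, 4 had an unadjusted edgeR p under 0.05, as had 3460 of all genes. The members' median log2 fold change was 0.42 (quartiles 0.05 and 1.24), against 0 over all genes (-0.74 and 0.85). In all, 21 members had a value above 0 and 7 below.

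The called member was PLIN5, with 292 and 732 counts in the IVO MII libraries and 14, 24 and 65 in the IVM MII libraries. In CPM it was at 21.6 ± 9.44 (SD, n = 2) in IVO MII and 1.40 ± 0.911 (n = 3) in IVM MII. The log2 fold change of PLIN5 was -3.93 with an SE of 0.64 (edgeR adjusted p = 0.0303), lower in IVM MII. Over 14 alternatives the value ranged from -4.61 to -3.47 and the adjusted p from 7.07e-08 to 0.128. The call was lost without GV replicate 2 (0.0532), IVO MII replicate 2 (0.109), IVM MII replicate 1 (0.105) or IVM MII replicate 2 (0.128), and in a fit of only the groups compared (0.0619). Without IVM MII replicate 1 or 2, 0 of all tested genes were called between the MII groups, so those losses are not particular to PLIN5. IVM MII replicate 3, at 2.44 CPM, was the closest of its group to the other groups.

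**Figure D4:**
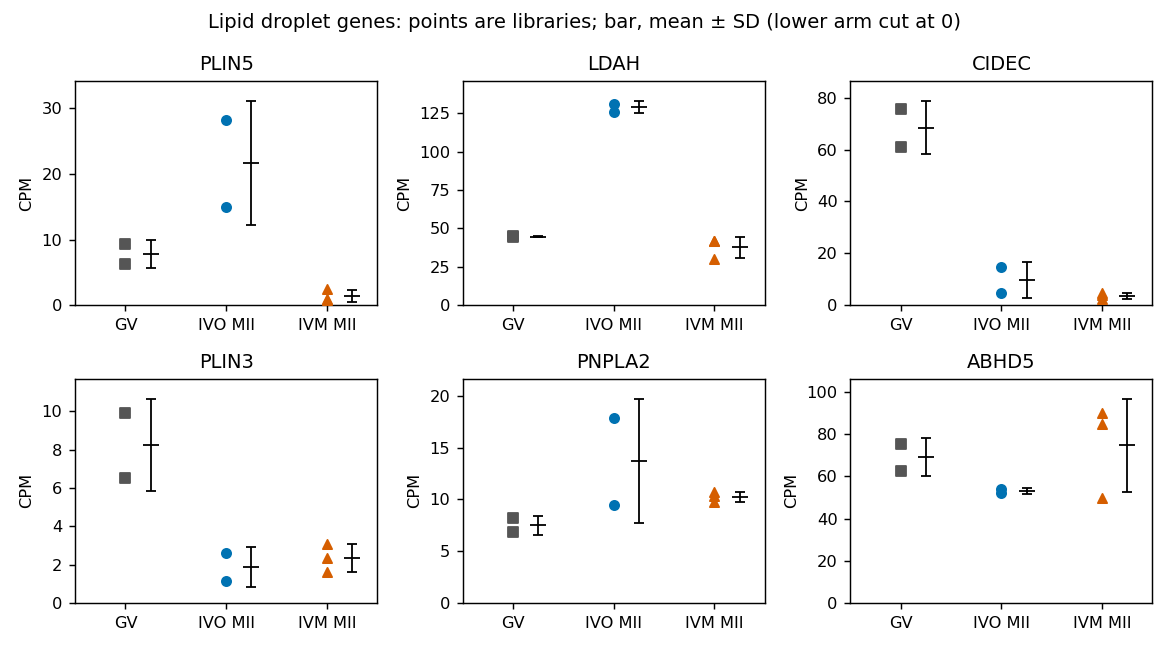
CPM per library (points) with the mean and SD of each group (bars) for the coat genes PLIN5 and PLIN3, the lipase genes PNPLA2 and ABHD5, and LDAH and CIDEC from the list of other droplet genes. PLIN5 and LDAH are high in IVO MII (LDAH at 126 and 131 CPM) and low in IVM MII, and CIDEC is high in GV.

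The other members did not pass the test between the kinds of MII oocyte. CPT2 was higher in IVM MII by a ratio of 17.0 (95% exact counting interval 5.59 to 84.1), with an edgeR adjusted p of 0.113, and all 3 IVM MII libraries lay above both IVO MII libraries. HADHB was higher in IVM MII without overlap (log2 fold change 1.58, SE 0.58, edgeR adjusted p = 0.169), as was ETFDH (1.25, SE 0.57, adjusted p = 0.251). The share of all genes with no overlap between these groups was not counted, so this adds nothing to the test. ECHS1 had 2.07 (SE 1.16, adjusted p = 0.338), ACADL 1.46 (SE 0.96, adjusted p = 0.411), DGAT2 2.44 (SE 1.68, adjusted p = 0.431), SLC25A20 1.24 (SE 1.91, adjusted p = 0.751) and ACSL4 1.00 (SE 0.78, adjusted p = 0.492). HADHA lay the other way at -1.17 (SE 0.62, adjusted p = 0.315). CPT2 was called with DESeq2 (adjusted p = 0.0179), and ETFDH was called at 2.71 without IVO MII replicate 1 (edgeR adjusted p = 0.0375), against 0.45 without IVO MII replicate 2. HADHB had 2.54 and 0.92 without these libraries in turn and was not called. A p above the threshold does not show equal levels.

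Some members were at 0 counts in a whole MII group. With 3 counts put in each library of the group at 0, ACSL6 was 2.96-fold higher in IVM MII than in IVO MII (edgeR adjusted p = 0.243). CPT1B was 3.03-fold lower by the same rule (0 counts in IVM MII, edgeR adjusted p = 0.210). Such folds leave out the sampling error and the spread of the higher group. ACSL6 had 11, 0 and 16 counts in IVM MII and 0 in IVO MII. All 21 counts of CPT1B in IVO MII were in replicate 2, and without it both MII groups were at 0. CPT1A, which was not tested, had 3, 0 and 11 counts in IVM MII and 0 in IVO MII. By the same rule it was 1.43-fold higher in IVM MII, which rests mostly on replicate 3. Of the members called lower in both MII groups, log2 fold changes between these groups were -0.01 (SE 0.50) for ETFB, -0.32 (SE 0.38) for ECI2, 0.35 (SE 0.52) for ECI1, 0.29 (SE 0.57) for HADH and -1.17 (SE 0.62) for HADHA. Of those called higher in both, ETFA had 0.25 (SE 0.30), ACSL3 0.21 (SE 0.30), ACADM 0.74 (SE 0.49) and ACSL4 1.00 (SE 0.78).

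Other genes of lipid metabolism were read from 6 lists, with 74 tested genes of 90 listed. In IVO MII 11 of them rose (14.9%) and 7 fell (9.46%), against 14.6% and 13.5% of all tested genes. In IVM MII 8 rose (10.8%) and 13 fell (17.6%), against 18.5% and 17.8%. Between the MII groups 0 were higher and 1 was lower in IVM MII (1.35%, against 0.58%). The lists follow textbook knowledge of the pathways and were chosen with earlier results of these data known. Counts of single lists below rest on few genes and are to be read against these same shares of all tested genes.

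In the droplet list of 9 tested genes, 3 rose and 2 fell in IVO MII and 2 rose and 2 fell in IVM MII. LDAH, which encodes a hydrolase on the droplet surface, had 44.9 and 44.3 CPM in GV, 126 and 131 in IVO MII, and 29.9, 41.6 and 41.7 in IVM MII. It rose by 1.53 in IVO MII (SE 0.35, edgeR adjusted p = 0.0129), and in IVM MII it was lower than in IVO MII by a log2 fold change of -1.77 (SE 0.31, adjusted p = 0.0368). The call against GV was lost without GV replicate 1 or 2 (0.124 and 0.123). The call between the MII groups was lost without any 1 of GV replicates 1 and 2, IVO MII replicates 1 and 2 and IVM MII replicates 1 and 2 (adjusted p between 0.0526 and 0.128), and in a fit of only the groups compared (0.0829). Between the MII groups 0 of all tested genes were called without IVM MII replicate 1 or 2, so those losses are not particular to LDAH. CIDEC, which fuses droplets, had 61.2 and 75.6 CPM in GV, 4.69 and 14.7 in IVO MII, and 4.78, 3.80 and 2.44 in IVM MII. CIDEC fell, with log2 fold changes of -2.82 and -4.22 (edgeR adjusted p = 0.0111 and 0.00164). Its IVO MII call was lost without GV replicate 2 (0.0601).

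AUP1, a droplet protein also known from protein degradation, fell in both, with log2 fold changes of -4.07 and -4.80 (edgeR adjusted p = 0.0249 and 0.00594), and DDHD2, a phospholipase and triglyceride hydrolase gene, rose by 2.22 and 2.35 (adjusted p = 0.0177 and 0.00933). The DDHD2 row carries a locus name and was identified through RefSeq. The call of AUP1 in IVO MII was lost without GV replicate 1 or 2 or IVO MII replicate 1 (0.0517 to 0.0972). That of DDHD2 was lost in IVO MII without the same libraries (0.0503 to 0.145) and in IVM MII without GV replicate 1 (0.0986). The remaining called droplet gene was RAB18, higher in both. Its calls were lost without GV replicate 1 or 2 (0.0820 to 0.218), and in IVO MII also without IVO MII replicate 1 (0.124) or IVM MII replicate 2 (0.0517) and with RLE scaling (0.0536).

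In glycerolipid synthesis, with 10 tested genes, 1 rose and 1 fell in IVO MII and 1 rose and 2 fell in IVM MII. GPAM, the mitochondrial enzyme of the first acylation, had 56.8 and 57.5 CPM in GV, 218 and 206 in IVO MII, and 181, 208 and 234 in IVM MII. It rose by 1.89 and 1.86 (edgeR adjusted p = 0.00401 and 0.00259), with the IVO MII call lost without GV replicate 1 (0.0539). AGPAT2, of the second acylation, fell with log2 fold changes of -4.01 and -3.02 (adjusted p = 0.0240 and 0.0267). Its calls were lost in IVO MII without GV replicate 1 or 2 or IVO MII replicate 1 (0.0640 to 0.0888), and in IVM MII without GV replicate 1 or 2 or IVM MII replicate 1 or 2 (0.0507 to 0.119). GPAT2 was the other gene that fell in IVM MII, a call lost without GV replicate 1 (0.0777).

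Of 18 tested genes of fatty acid uptake, binding and synthesis, 3 rose and 2 fell in IVO MII, and 2 rose and 2 fell in IVM MII. SLC27A5, a bile acid and very long-chain acyl-CoA synthetase, had 80.4 and 114 CPM in GV, 1.53 and 3.20 in IVO MII, and 3.38, 9.25 and 1.88 in IVM MII, and fell with log2 fold changes of -5.35 and -4.33 (edgeR adjusted p = 0.00348 and 0.00250). FABP5, a fatty acid binding protein, fell with log2 fold changes of -2.58 and -1.78 (adjusted p = 0.0131 and 0.0237), and SLC27A6, a fatty acid transporter, rose by 1.28 and 1.84 (adjusted p = 0.0363 and 0.00580). The SLC27A6 call in IVO MII was lost without GV replicate 1 or 2, IVO MII replicate 1 or IVM MII replicate 1 or 2, and with RLE scaling, no filter on low counts or only the groups compared (0.0505 to 0.248). ELOVL6, an elongase of saturated fatty acids, rose by 2.10 in IVO MII (adjusted p = 0.0216) and had 1.41 in IVM MII (adjusted p = 0.0540). FABP5 lost its IVO MII call without GV replicate 2 or IVO MII replicate 2 (0.0816 and 0.0549). FABP5 and SLC27A6 lost their IVM MII calls without GV replicate 1 or 2 (0.0737 to 0.163). ELOVL6 lost its call without any 1 GV or IVO MII library (0.0564 to 0.114). ELOVL5 was the other gene that rose in both. Its IVO MII call was lost with any 1 library other than IVM MII replicate 3 left out and with RLE scaling (0.0526 to 0.283). Its IVM MII call was lost without GV replicate 1 or 2, IVO MII replicate 2 or IVM MII replicate 1 or 2, with RLE or upper quartile scaling and with no filter on low counts (0.0548 to 0.339).

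Among 14 tested transcriptional regulators and AMPK subunits, 3 rose and 1 fell in IVO MII, and 2 rose and 3 fell in IVM MII. PRKAA2, a catalytic subunit of the energy sensor AMPK, rose by 1.63 and 1.49 (edgeR adjusted p = 0.0333 and 0.0300). The nuclear receptor coactivator NCOA1 rose by 1.35 and 1.66 (adjusted p = 0.0330 and 0.00973). The regulatory subunits PRKAB1 and PRKAG1 fell in IVM MII, with log2 fold changes of -2.08 and -2.12 (adjusted p = 0.00735 and 0.0456). The PRKAA2 calls were lost without GV replicate 1 or 2 (0.118 to 0.240 in IVO MII, 0.109 to 0.239 in IVM MII), in IVO MII also without IVO MII replicate 1 (0.173) or IVM MII replicate 1 (0.0523) and with only the groups compared (0.0528), and in IVM MII also without IVM MII replicate 1 or 3 (0.0736 and 0.0510). The NCOA1 calls were lost without GV replicate 1 or 2 (0.101 to 0.208), and in IVO MII also without IVO MII replicate 1 or 2 (0.0910 and 0.0543) or IVM MII replicate 1 (0.0513) and with no filter on low counts (0.0504). PRKAB1 lost its call without GV replicate 1 (0.151), and PRKAG1 without GV replicate 1 or 2 or IVM MII replicate 1 or 3 (0.0917 to 0.185). The remaining called genes of this list lay under 10 CPM and were named after their values were seen. ESRRA, a nuclear receptor of mitochondrial genes, had 148 and 102 counts in GV, 0 in both IVO MII libraries and 19, 13 and 15 in IVM MII, at least 28.7-fold higher in GV than in IVO MII. PPARGC1A, a coactivator of such receptors, had 2 and 2 counts in GV, 68 and 68 in IVO MII, and 1, 2 and 26 in IVM MII. The ESRRA call in IVO MII held under every alternative that was run, and that of PPARGC1A was lost without any 1 GV or IVO MII library (0.0634 to 0.223). RXRB was the third gene that fell in IVM MII, a call lost without any 1 GV or IVM MII library (0.0561 to 0.236).

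Of 12 tested genes of auxiliary mitochondrial oxidation, 1 fell in IVO MII and 3 in IVM MII, with 0 higher in either. ACAA2, a matrix thiolase, fell by 1.56 in IVO MII (edgeR adjusted p = 0.0469). MLYCD, which removes the malonyl-CoA that blocks carnitine palmitoyltransferase, and ACACB, which makes it, fell in IVM MII, with log2 fold changes of -3.66 and -3.12 (adjusted p = 0.0268 and 0.0129). ACAD9 fell in IVM MII as well, a call lost without GV replicate 1 or 2 (0.174 and 0.0655). The ACAA2 call was lost without any 1 of GV replicates 1 and 2, IVO MII replicate 2 and IVM MII replicates 1 and 2 (0.0628 to 0.189), with no filter on low counts (0.0528) and with only the groups compared (0.0764). MLYCD lost its call without GV replicate 1 or 2 or IVM MII replicate 3 (0.0541 to 0.0929), and ACACB without GV replicate 2 (0.128). In the peroxisome, which shortens very long chains, 1 of 11 tested genes rose in IVO MII, and 1 rose and 1 fell in IVM MII. The transporter gene ABCD3 rose by 1.91 and 2.54 (adjusted p = 0.00767 and 0.00208), with the IVO MII call lost without GV replicate 1 or 2 (0.0851 and 0.0632). DECR2 fell in IVM MII, a call lost without GV replicate 1 or 2 or IVM MII replicate 1 or 2 (0.0520 to 0.211).

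**Figure D5:**
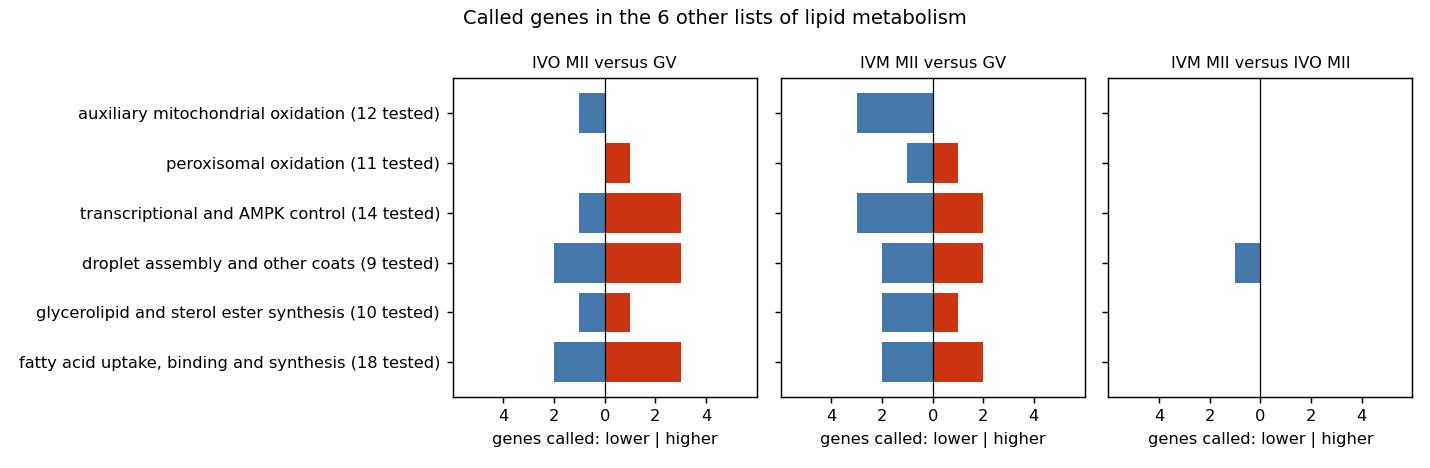
Bars count the genes called lower (left of 0) and higher (right of 0) at an edgeR adjusted p under 0.05 in each of 6 other lists, in 3 panels for the 3 comparisons, with the number of tested genes beside each list. Calls went both ways against GV, and LDAH of the droplet list is the 1 call between the MII groups.

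Markers of other ovarian cell types also differed between groups. Cumulus and granulosa markers (16 of 17 with a row) summed to 18.8 to 20.0 CPM in GV, 64.4 to 110 in IVO MII and 98.2 to 219 in IVM MII. Most of this came from TNFAIP6 (means 10.5, 32.2 and 107 CPM), HAS2 (6.06, 39.0 and 14.3) and FSHR (1.63, 4.66 and 35.2). HAS2 and VCAN rose by 2.68 and 4.05 in IVO MII versus GV (edgeR adjusted p = 0.0075 and 0.024). TNFAIP6 rose by 3.34 in IVM MII versus GV (edgeR adjusted p = 0.00489). FSHR was higher in IVM MII than in GV by 4.43 and than in IVO MII by 2.92 (edgeR adjusted p = 0.00224 and 0.0553). CYP19A1 (aromatase, a row identified through RefSeq) went the other way to FSHR between the MII groups. CYP19A1 had 17 and 6 counts in GV, 193 and 32 in IVO MII and 0 in all IVM MII libraries. Its edgeR adjusted p was 0.0514 between the MII groups and 0.0366 for IVM MII versus GV. NR5A2 had 25 and 4 counts in IVO MII and at most 3 in any other library. STAR and LHCGR were at 0 counts in all MII libraries, AMH and PTX3 were at 0 in all libraries, and FOXL2 and INHA had at most 10 counts in a library. Stroma, theca and endothelium markers (10 of 10 with a row, COL3A1 and LUM at 0 in all libraries) summed to 1094 to 1221 CPM in GV, 92.3 to 128 in IVO MII and 74.0 to 90.9 in IVM MII. VWF made up most of that sum in GV (1066 ± 105 CPM, n = 2). Blood and immune markers (6 of 7 with a row, CD14 and LYZ at 0 in all libraries) summed to at most 1.12 CPM in a library. The part of these markers in the members' differences was not tested.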

How the data were processed

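Poly(A)-primed, PCR-amplified cDNA of monkey oocytes was sequenced in 7 libraries. The authors deposited raw counts per gene. The submitters' processing notes name featureCounts 2.0.1, Bowtie2 2.4.5, Trim Galore 0.6.7, DESeq2 and SAMtools 1.15.1. The sources used here do not give the genome build, strand setting or treatment of multiply matching reads, so coordinates are those of the deposited table. Bowtie2 does not split reads over introns, so reads across exon borders can be lost to a degree that differs between genes. Comparisons of levels per kilobase between genes are therefore uncertain. Counts of genes with pseudogenes or overlapping genes are uncertain as well. The 10 broken lines of 3 genes were left out.

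Counts of the whole table were fitted in edgeR 4.0.16 (R 4.3.3; TMM, filterByExpr, glmQLFit and glmQLFTest, all 7 libraries in 1 fit, two-sided, Benjamini-Hochberg adjusted p under 0.05). TMM-scaled CPM and CPM per kilobase of the table's gene length were computed with Python 3.11.15 and pandas 2.3.3. Genes with 0 counts in a group are given as bounds against 3 counts per library. Such bounds leave out the sampling error and the spread of the higher group. Genes with 1 to 3 counts in a group are given as ratios with a 95% exact interval. Intervals pool the counts of a group and leave out the spread between libraries. They may be too narrow even for counting error, since PCR copies are not independent molecules. No pair of libraries of a group was alike within sampling noise (chi-square per degree of freedom 49.49 to 285.5). The fit was also run on counts simulated from its own fitted spread, which cannot show how well that spread describes these libraries.

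A member has its fold change, SE and adjusted p in the text where it was called or its log2 fold change was at least 1 in size. Of each other list, up to 3 called genes per comparison with at least 10 CPM were named by rule. The remaining called genes were named after their values were seen. The members and lists were chosen with earlier results of these data known. Alternatives were DESeq2 1.42.0, limma 3.58.1 (voom), other scalings, no low-count filter, only the groups compared, a replicate block and leaving out each library. A crossed replicate block was added after seeing the data. Locus names were matched to RefSeq by gene identifier (5013 of 11294 matched).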

Additional observations from a re-analysis of the deposited data

Results flagged for a closer look

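PLIN5 stood out because its change from GV differed between maturation in the animal and in culture. It was 1.46 on the log2 scale (SE 0.68) in IVO MII and -2.46 (SE 0.62) in IVM MII, and the edgeR test of the difference gave -3.93 (SE 0.64, adjusted p = 0.0303), lower in 3 of 3 IVM MII libraries than in either IVO MII library. The call was lost without GV replicate 2 (value -3.93) or IVO MII replicate 2 (value -3.47). It was also lost without IVM MII replicate 1 or 2 (edgeR adjusted p = 0.105 and 0.128), where 0 of all tested genes were called.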

How the results depend on the processing

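Between IVM and IVO MII the number of called members, 1, became 2 with DESeq2 (CPT2 added) and 0 in a fit of only the groups compared, and 0 to 2 with 1 library left out (0 without GV replicate 2, IVO MII replicate 2 or IVM MII replicate 1 or 2, and 2, with ETFDH added, without IVO MII replicate 1). In IVO MII versus GV the 11 called members became 4 to 11 with 1 library left out: 5 and 4 without GV replicates 1 and 2, and 7 without IVO MII replicate 1, with 0 higher in each of these 3 settings. In IVM MII versus GV the 10 became 6 to 14, with 6 without either GV replicate. Such fits leave 1 library in a group of 2, which is assumed to vary like the others. Fewer genes of the whole table were called higher in those 3 settings of IVO MII versus GV as well. The 0 higher members there can therefore not be read as a trait of the members. The cause of these shifts was not tested. The log2 fold change of SLC25A20 between IVM and IVO MII, 1.24, turned to -0.17 without IVM MII replicate 1 (-0.17 to 6.48 over the left-out libraries), and that of PPARA in IVO MII versus GV, 1.47, to -0.79 without IVO MII replicate 2 (-0.79 to 2.30). Of the members' other values, 654 kept their direction and side of the threshold, 2 became 0, 45 lost a call and 32 gained one. Over all genes, 241 calls between IVM and IVO MII became 2041 with DESeq2, 497 with limma voom, 731 with no filter, 54 in a fit of only the groups compared, 1238 with the replicate block and 0 to 1277 with 1 library left out. With 1 library left out the 4596 of IVO MII versus GV became 1484 to 5517, and the 5949 of IVM MII versus GV became 2110 to 6716. Over all genes the median in IVO MII versus GV was -0.16, and -0.42 with DESeq2. Replicate numbers were not taken to pair the samples in the main fit. Same-numbered libraries correlated at -0.234 (GV and IVO MII), 0.353 and -0.177 (IVO and IVM MII) and -0.171 and 0.11 (GV and IVM MII). The numbers here and in the replicate block are those of the sample titles, and another label gives IVO MII replicate 2 the number 3. That library correlated at 0.406 with IVM MII replicate 3. Differently numbered IVO and IVM MII libraries, by title, lay between -0.406 and 0.406. These are correlations of deviations from the group means, which mirror each other in a group of 2. They can neither show nor exclude pairing. With a replicate block 1, 10 and 10 members were called, with the calls lost of CPT2 (adjusted p = 0.0657) and SLC27A6 (0.0505) in IVO MII and of PRKAG1 (0.0546), PRKAA2 (0.0571) and RXRB (0.107) in IVM MII, and no other call of a named gene lost, and with the crossed pairing 10 in IVO MII versus GV. At 1 to 3 counts depth limits what can be seen of CPT2, DGAT2, ACSL6 and LIPE.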
